A study of Mus musculus with 6 samples.

Results

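Genes of sterol and fatty acid synthesis were examined in cultured mouse lung fibroblasts, from Mmp19 knockout (KO) and wild-type (WT) mice. The set held 37 named genes: 17 enzymes of the sterol pathway, the sterol carrier Stard4, 5 genes of the machinery that controls the transcription factor SREBP, 9 enzymes of fatty acid synthesis and desaturation, 3 targets of the liver X receptors (LXR) and the 2 receptors themselves. Members were found by matching the RefSeq accession of each array probe to a gene symbol, which gave 51 probes for the 37 genes among 55681 probes and 20018 named genes in all. All 37 had at least 1 probe that could be tested, as had 12470 genes in total.

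The KO group was 3 cultures from animals without Mmp19, a secreted matrix metalloproteinase, and the WT group was 3 cultures from wild-type animals. All mice were labelled as females aged 11 weeks, and all, controls included, had received 0.08 units of bleomycin into the trachea, a drug whose lung injury is followed by fibrosis; there was no group without bleomycin. Fibroblasts were isolated on day 21 and kept in culture, with an incubation of 72 hours, and each RNA was hybridised to a one-colour Agilent array. The strain, the design of the knockout allele and whether animals were pooled are not given in the sources used here. The series text speaks of independent experiments but ties no array to an animal, so the p-values measure the spread between these arrays.

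Cholesterol is built from acetyl-CoA through mevalonate, isoprenoid diphosphates, squalene and lanosterol. SREBP proteins are made in the endoplasmic reticulum and held there by INSIG when sterols are plentiful; when sterols run low, SCAP carries them to the Golgi for cleavage, and the freed fragment activates genes of sterol and unsaturated fatty acid synthesis. LXR proteins are nuclear receptors that bind oxysterols, pair with RXR and activate genes of sterol export, such as Abca1 and Abcg1, and Mylip, a ubiquitin ligase that limits lipoprotein uptake. In the lung these pathways are best known from the type II cells that make surfactant and from lipid-holding fibroblasts beside them.

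All signals are log2 of the processed signal minus the 75th percentile of that array, so that 0 is the array's own 75th percentile. Differences are KO minus WT on that log2 scale, with standard errors from limma fitted across all 24214 probes tested. Mmp19 was at -5.23, -6.51 and -6.05 on the KO arrays, against -0.55, -2.69 and -0.69 on the WT arrays. It was well above background on 0 KO and 3 WT arrays and at least 5.33-fold lower in KO (limma adjusted p = 0.016); the sources used here do not place its probe relative to the deleted part. Of 12 fibroblast markers, 12 were well above background on every KO array and at least 11 on every WT array, and of 10 alveolar epithelial markers 8 were above it on every KO array and 7 or 8 on the WT arrays. Those included the surfactant gene Sftpc, at 5.45, 4.48 and 4.91 in KO and at 5.09, 5.03 and 4.80 in WT, while Epcam and Nkx2-1 were above background on no array. Of the 8 epithelial markers tested 0 passed in either direction. At an unadjusted p of 0.05, 2 of them were higher and 0 lower, where 14.4% of all genes were higher and 7.38% lower. Of 8 mesothelial markers tested, 6 were higher in KO and 0 lower, where 3.3% of all genes were called higher. Upk1b (3.29 ± 2.04) and Krt19 (-0.28 ± 0.42) did not pass, and Calb2 was above background on no array. The summed signal of 9 mesothelial probes ran from 45.7 to 131 times the 75th percentile in KO and from 2.75 to 18.6 times in WT. Xist, which coats the silenced X of female cells, cleared background on 3 KO arrays and 0 WT arrays, and the Y-linked Eif2s3y and Ddx3y were above it on all 6 arrays, so the libraries go against the sex label. Both Y-linked genes were lower on every KO array than on any WT array. They differed by -3.21 ± 0.94 and -2.48 ± 0.79, without passing (limma adjusted p = 0.112 and 0.139). The groups thus differed in sex-linked RNA as well as in genotype, and these cannot be told apart here for any gene. WT replicate 2 correlated with the other WT arrays at 0.939 and 0.960, against 0.984 between those, and KO replicate 1 with the other KO arrays at 0.958 and 0.980, against 0.986. In bulk RNA, fewer cells of a type and less RNA per cell cannot be told apart.

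Promoters were read from RefSeq's table for GRCm38.p6, which had a window of 300 bases (250 before and 50 after the start) for 29 of the 37 genes and for 21 of the 28 SREBP targets. The letters CCAAT, the box bound by NF-Y, a factor known to work with SREBP, stood on either strand in 17 of the 21 SREBP targets (81.0%), against 41.1% of all 27025 genes with a window. The Sp1 box GGGCGG stood in 16 of the 21 (76.2%), against 38.2% of all genes. The core of the sterol response element, TCACNCCAC, was found in 1 of the 21, Hmgcs1, and in 1.44% of all genes. The longer classical form of the sterol response element, which contains that core, was in 0 of the 21 and in 0.0999% of all genes, and the LXR element of direct-repeat type DR4 in 0 of 29 members and in 0.0148% of all genes. All of these counts are matches of letters within one short window, and promoters of genes past and not past the expression threshold both held CCAAT (3 of 5 members past it, and 14 of 17 SREBP targets not past it).

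The 250 bases before the start are shown, 5′ to 3′ on the strand of the gene, for the 5 members that passed the expression test below and have a window (Insig1, Idi1, Mvd, Fads2 and Abca1), and for Hmgcs1, which holds the sterol element core. Capitals mark CCAAT on either strand (ATTGG on the other) and TCACNCCAC. The bases of Insig1 are chr5:28071162-28071411 on the plus strand, those of Idi1 chr13:8885356-8885605 on the plus strand and those of Mvd chr8:122443423-122443672 on the minus strand. The bases of Hmgcs1 are chr13:119690101-119690350 on the plus strand, those of Fads2 chr19:10101504-10101753 on the minus strand and those of Abca1 chr4:53159896-53160145 on the minus strand.
Insig1: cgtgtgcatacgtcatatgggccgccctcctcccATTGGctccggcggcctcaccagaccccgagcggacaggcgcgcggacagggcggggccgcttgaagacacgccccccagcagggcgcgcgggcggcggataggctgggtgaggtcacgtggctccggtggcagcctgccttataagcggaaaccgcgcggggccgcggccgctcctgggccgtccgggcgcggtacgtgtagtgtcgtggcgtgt
Idi1: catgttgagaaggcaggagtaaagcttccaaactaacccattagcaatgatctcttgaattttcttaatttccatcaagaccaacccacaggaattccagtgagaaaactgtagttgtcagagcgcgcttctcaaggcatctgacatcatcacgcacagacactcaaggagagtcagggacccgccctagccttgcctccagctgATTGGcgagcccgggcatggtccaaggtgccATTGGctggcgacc
Mvd: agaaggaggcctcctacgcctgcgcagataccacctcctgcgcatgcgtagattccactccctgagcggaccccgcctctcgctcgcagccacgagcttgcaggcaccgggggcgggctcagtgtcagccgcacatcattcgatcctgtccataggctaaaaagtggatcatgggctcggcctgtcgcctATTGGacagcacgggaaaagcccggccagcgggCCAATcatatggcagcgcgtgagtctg
Hmgcs1: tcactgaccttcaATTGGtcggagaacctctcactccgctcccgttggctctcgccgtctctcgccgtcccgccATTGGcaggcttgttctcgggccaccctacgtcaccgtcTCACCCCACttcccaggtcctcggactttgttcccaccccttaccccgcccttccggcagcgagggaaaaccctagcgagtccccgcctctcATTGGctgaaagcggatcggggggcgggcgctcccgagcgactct
Fads2: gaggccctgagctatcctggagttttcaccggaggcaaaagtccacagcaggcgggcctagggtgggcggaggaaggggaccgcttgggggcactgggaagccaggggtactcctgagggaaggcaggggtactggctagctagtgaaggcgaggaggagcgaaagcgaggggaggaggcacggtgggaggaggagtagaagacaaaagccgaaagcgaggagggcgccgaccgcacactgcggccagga
Abca1: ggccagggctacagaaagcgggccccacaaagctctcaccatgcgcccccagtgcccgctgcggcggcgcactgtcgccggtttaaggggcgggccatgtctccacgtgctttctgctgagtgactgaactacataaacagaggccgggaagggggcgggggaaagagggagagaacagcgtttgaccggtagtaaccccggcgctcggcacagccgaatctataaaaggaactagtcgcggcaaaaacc
Hmgcs1 has 3 CCAAT matches and the sterol element core in these bases, with the core's first letter at position -137. Idi1 and Mvd have 2 CCAAT matches each and Insig1 has 1, and the bases of Fads2 and Abca1 hold neither motif.

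Among the 37 genes, 8 were higher in KO and 0 lower (21.6% higher), where 3.3% of all 12470 genes were called higher and 1.49% lower (4.8% in either direction). The 8 were the sterol enzymes Idi1, Mvd and Fdps, the SREBP retention factor Insig1, the desaturases Scd1, Fads1 and Fads2, and the exporter Abca1. Their differences ran from 0.95 to 2.27 log2 units. Of the 8, Fads2 entered the test through the KO arrays, since it was well above background on only 2 WT arrays. The direction was the same in most other members: 31 of 37 (83.8%) had a positive difference, against 56.3% of all genes, and the median difference was 0.62, against 0.08 over all genes. At an unadjusted p of 0.05, 18 members (48.6%) were higher and 0 lower, against 14.4% of all genes higher and 7.38% lower. In 23 members (62.2%) every KO array lay above every WT array, as it did in 21.2% of all genes, and in 0 members every KO array lay below every WT array, as it did in 9.79%.

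Each slide carried the KO and the WT array of the same replicate number. With slide as a block, 1 member was higher, Fads1 (adjusted p = 0.0455), and 0 were lower, where 1.17% of all genes were called higher and 0.626% lower. The other 7 then had adjusted p between 0.0595 and 0.109, and the unadjusted count was 19 members higher, where 14.1% of all genes were. Within slides 1, 2 and 3 the members' median difference was 0.47, 0.81 and 0.43, and that of all genes was -0.01, 0.33 and -0.03; the members therefore stood 0.48, 0.48 and 0.46 above all genes. The count also varied with the arrays used: it was 8 without WT replicate 2, 3 without KO replicate 1 and 2 without KO replicate 2. It was 0 without KO replicate 3, WT replicate 1 or WT replicate 3. At an unadjusted p of 0.05, 15 to 18 members were higher in these 6 fits. By that measure 1 member was lower without WT replicate 1 and 0 in the other fits. The share of all genes at an unadjusted p was not taken for these fits. The share of all genes called higher moved as well: it was 4.05% without WT replicate 2, 1.51% and 1.46% without KO replicates 1 and 2, and 0.377%, 1.29% and 0.417% without KO replicate 3, WT replicate 1 and WT replicate 3.

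**Figure D1:**
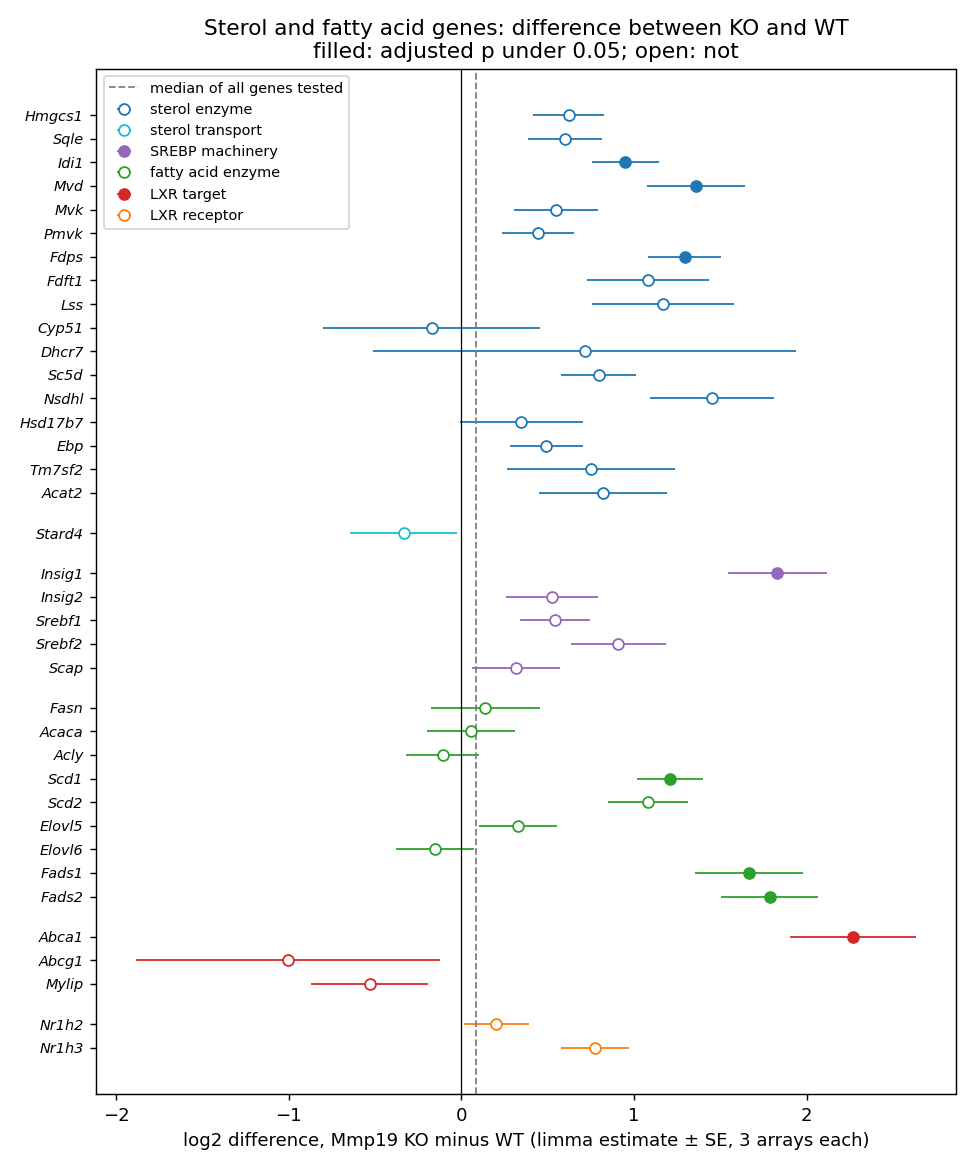
Log2 difference, KO minus WT, of each of the 37 genes by role (points, with bars of 1 standard error from limma; the dashed line is the median of all genes, 0.08). Filled points passed the adjusted p threshold of 0.05: 8 genes, all to the right of 0.

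The sterol pathway was read along its steps. Of its 17 enzymes, 3 were higher in KO and 0 lower, 16 had a positive difference, and the median was 0.75. Hmgcs1, which makes HMG-CoA ahead of mevalonate, was at 5.40, 5.09 and 5.00 in KO and at 4.42, 4.61 and 4.60 in WT. Its groups did not overlap, and its difference of 0.62 ± 0.21 did not pass the test (adjusted p = 0.147). The mevalonate kinase Mvk and the phosphomevalonate kinase Pmvk differed by 0.55 ± 0.24 and 0.44 ± 0.21, again with separate groups and without passing (adjusted p = 0.256 and 0.284).

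The next 3 enzymes, which make and join the isoprenoid units, were those that passed. Mvd, which decarboxylates mevalonate diphosphate, was at 1.61, 1.92 and 2.004 in KO and at 0.68, -0.04 and 0.82 in WT, with WT replicate 2 the lowest. It was higher in KO by 1.36 ± 0.29, a 2.56-fold difference (adjusted p = 0.0483). Idi1, which isomerises isopentenyl diphosphate, was at 4.50, 4.52 and 4.28 in KO and at 3.53, 3.34 and 3.59 in WT; the spread within either group was small beside the gap. Idi1 was higher by 0.95 ± 0.19, or 1.93-fold (adjusted p = 0.0452). Fdps, which joins the units into farnesyl diphosphate, was at 5.63, 6.08 and 5.997 in KO and at 4.52, 4.58 and 4.72 in WT. Fdps was higher by 1.30 ± 0.21, or 2.45-fold (adjusted p = 0.0246), and its difference within slides was 1.11, 1.5 and 1.28.

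Farther along, no enzyme passed by the probe that stood for it. Fdft1, which makes squalene, was at 2.65, 3.09 and 3.52 in KO and at 2.19, 1.40 and 2.43 in WT (difference 1.08 ± 0.35, adjusted p = 0.144). A dimmer probe of Fdft1 was well above background on 3 KO and 0 WT arrays, at least 1.93-fold higher in KO (adjusted p = 0.0217; 0.0639 with slide as a block; of all probes tested, 2.88% were called higher). That probe was tested only through the KO arrays, where it is high, so its p-value adds no separate support for Fdft1. The squalene epoxidase Sqle was at 5.54, 5.16 and 5.05 in KO and at 4.62, 4.58 and 4.75 in WT, a gap between separate groups of 0.60 ± 0.21 (adjusted p = 0.17). Lss, which closes the ring system to lanosterol, differed by 1.17 ± 0.41 (adjusted p = 0.17), and by 2.30 on slide 2 against 0.54 and 0.67 on slides 1 and 3.

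The enzymes that turn lanosterol into cholesterol were mixed. Nsdhl, a sterol dehydrogenase encoded on the X chromosome, was at -0.05, 0.81 and 0.89 in KO and at -0.78, -1.44 and -0.49 in WT, separate groups with a difference of 1.45 ± 0.36 that did not pass (adjusted p = 0.0754). The desaturase Sc5d differed by 0.80 ± 0.22 (adjusted p = 0.0931), the X-linked isomerase Ebp by 0.49 ± 0.21 (adjusted p = 0.243) and the ketoreductase Hsd17b7 by 0.35 ± 0.36 (adjusted p = 0.614). Whether the differences in Xist and the Y-linked genes bear on the X-linked pair, or on any other member, was not tested. Probes of Tm7sf2, a sterol reductase, disagreed. The brighter differed by 0.75 ± 0.49 (adjusted p = 0.42), with WT replicate 2 at 1.93 above every KO array (1.31 without it, adjusted p = 0.043). The dimmer differed by 1.71 ± 0.29 (adjusted p = 0.0278, and 0.0838 with slide as a block). That dimmer probe was well above background on 3 KO and 2 WT arrays, so it was tested through the KO arrays.

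Single arrays stood apart in 2 sterol enzymes. The lanosterol demethylase Cyp51 was at -1.56, 0.98 and 0.58 in KO and at 0.34, 0.00 and 0.17 in WT, so KO replicate 1 lay below and the other KO arrays above every WT array (difference -0.17 ± 0.63, adjusted p = 0.905; 0.61 without KO replicate 1, adjusted p = 0.29). Dhcr7, a late reductase, was at -2.80, -1.39 and -1.89 in KO and at 0.31, -4.57 and -3.96 in WT, with WT replicate 1 far above the rest. The difference was 0.71 ± 1.22 (adjusted p = 0.781), and 2.24 without that array (adjusted p = 0.0811). The probe of Dhcr7 was well above background on 3 KO and 2 WT arrays. Its WT replicate 2 value lay below the lowest signal above background on that array, -3.25. Acat2, which joins acetyl-CoA units at the entry of the pathway, differed by 0.82 ± 0.37 (adjusted p = 0.265). Stard4, which carries cholesterol between membranes, was one of the few members with a negative value, -0.33 ± 0.31 (adjusted p = 0.579), and its second probe differed by 0.01 in a fit with the WT replicate 2 value missing.

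**Figure D2:**
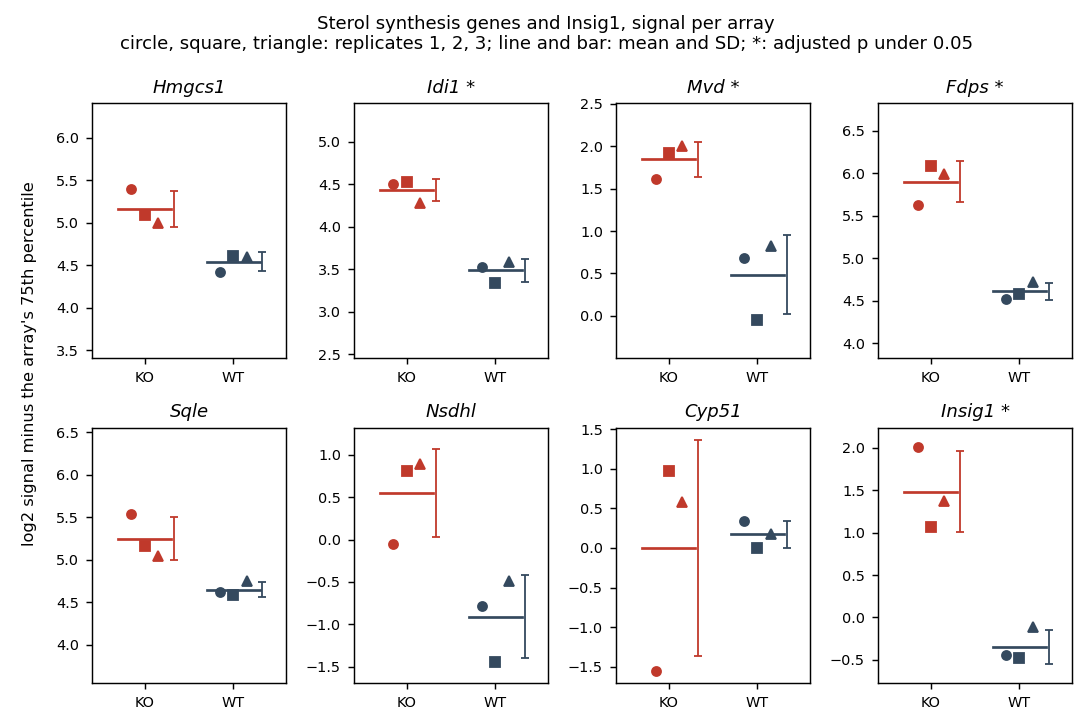
Log2 signal minus the array's 75th percentile for 7 sterol enzymes and Insig1 on each array (circles, squares and triangles are replicates 1, 2 and 3; lines and bars are the mean and SD of 3 arrays). KO and WT points are separate in all but Cyp51, where KO replicate 1 lies at -1.56; stars mark Idi1, Mvd, Fdps and Insig1, which passed the test. Vertical axes differ in position between panels.

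Among the 5 genes of the SREBP machinery, Insig1 was higher in KO and the other 4 did not pass. Insig1, which holds SREBP in the endoplasmic reticulum and is itself a target of it, was at 2.01, 1.06 and 1.38 in KO and at -0.45, -0.48 and -0.12 in WT. It was higher by 1.83 ± 0.29, or 3.56-fold (adjusted p = 0.0235), and within slides by 2.45, 1.55 and 1.495. Its relative Insig2 differed by 0.52 ± 0.27 (adjusted p = 0.314) on the brighter probe and by -0.08 ± 0.28 on a probe to another transcript accession.

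The transcription factors themselves had positive values that missed the threshold. Srebf2, which mainly drives sterol genes, was at -0.31, 0.27 and -0.09 in KO and at -0.87, -1.36 and -0.62 in WT, separate groups differing by 0.91 ± 0.28 (adjusted p = 0.121). Its dimmer probe differed by 0.36 ± 0.24 (adjusted p = 0.439), with overlapping groups and -0.10 on slide 2. Srebf1, which mainly drives fatty acid genes, was at -0.24, 0.05 and -0.30 in KO and at -0.57, -0.82 and -0.72 in WT (0.54 ± 0.20, adjusted p = 0.187). Scap, the escort to the Golgi, overlapped between groups (0.32 ± 0.26, adjusted p = 0.517). These are mRNA levels, and neither cleavage nor nuclear SREBP was measured.

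Fatty acid enzymes fell into desaturases with large differences and enzymes of chain synthesis and elongation with smaller ones, a split made after the values were seen. Of the 9, Scd1, Fads1 and Fads2 were higher in KO and 0 were lower, and the median over the 9 was 0.33. Scd1, which puts the double bond of oleate into stearate, was at 3.25, 3.42 and 3.43 in KO and at 2.13, 2.05 and 2.30 in WT. Scd1 was higher by 1.21 ± 0.19, or 2.31-fold (adjusted p = 0.0234), with within-slide differences of 1.12, 1.38 and 1.14. Scd2, a close relative of it, was at 5.27, 5.74 and 5.61 in KO and at 4.73, 4.37 and 4.28 in WT. Its difference of 1.08 ± 0.23 lay just outside the threshold (adjusted p = 0.0509), while Mvd lay just inside it. Probe sequences of these paralogs were not compared here, so cross-hybridisation within the family was not tested.

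Fads1 and Fads2 desaturate polyunsaturated fatty acids on the way to arachidonate. Fads1 was at 3.12, 2.41 and 3.07 in KO and at 1.37, 0.71 and 1.52 in WT; replicate 2 was the lowest of both groups, and the within-slide differences were 1.75, 1.70 and 1.55. It was higher by 1.67 ± 0.31, or 3.18-fold (adjusted p = 0.0363). Fads2 was dim, at -1.25, -1.05 and -0.50 in KO and at -2.52, -3.09 and -2.56 in WT, and was well above background on 3 KO and 2 WT arrays. Fads2 was therefore tested through the KO arrays, where it is high, and was not tested under the filter on all 6 arrays. It was higher by 1.79 ± 0.28, or 3.45-fold (adjusted p = 0.0236), but by 0.84 with normexp background correction, where it did not pass (adjusted p = 0.0897). Normexp also ended the calls of Fads1, Scd1 and Idi1 (adjusted p = 0.0561, 0.135 and 0.0889), with differences of 1.38, 0.94 and 0.85. Fads1 and Fads2 are neighbours on chromosome 19, with 1 annotated gene and 0 protein-coding genes between them in the RefSeq annotation of GRCm38.p6, and Scd1 and Scd2 lie on the same chromosome with 2 genes between them, of which 1 is protein-coding.

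The enzymes that build and lengthen chains did not pass, and their differences ran from -0.15 to 0.33. Fatty acid synthase, Fasn, was at -0.40, -1.03 and -0.48 in KO and at -0.46, -1.33 and -0.54 in WT, with replicate 2 low in both groups (0.14 ± 0.32, adjusted p = 0.836). Acaca, which makes malonyl-CoA, differed by 0.06 ± 0.26 (adjusted p = 0.926), and Acly, which makes cytosolic acetyl-CoA from citrate, by -0.11 ± 0.21 (adjusted p = 0.808). The elongases Elovl5 and Elovl6 differed by 0.33 ± 0.22 (adjusted p = 0.444) and -0.15 ± 0.23 (adjusted p = 0.743). The groups overlapped in Fasn, Acaca, Acly and Elovl6, and were separate by a small gap in Elovl5.

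**Figure D3:**
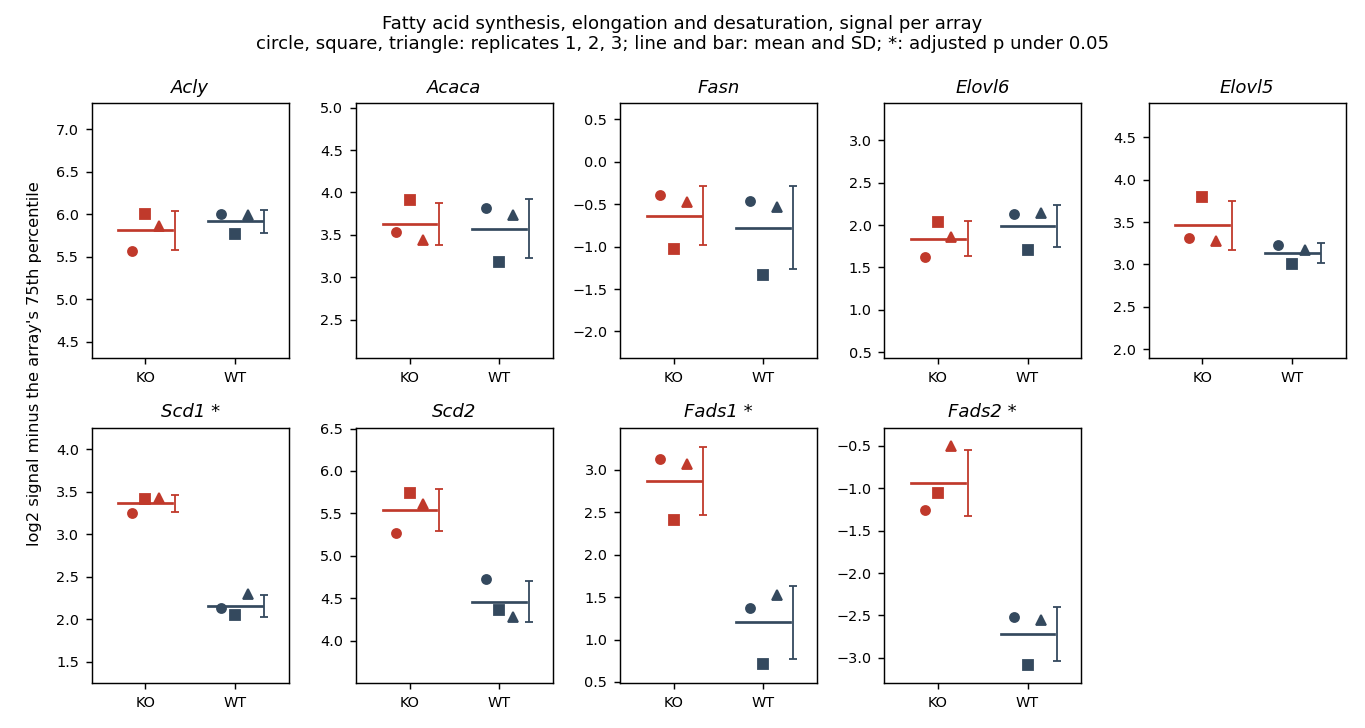
Log2 signal minus the array's 75th percentile for the fatty acid enzymes on each array (circles, squares and triangles are replicates 1, 2 and 3; lines and bars are the mean and SD of 3 arrays). KO lies above WT on every array for Scd1, Scd2, Fads1 and Fads2, and the groups overlap for Fasn, Acaca, Acly and Elovl6; stars mark adjusted p under 0.05.

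The 28 SREBP targets (the sterol enzymes, Stard4, Insig1 and the fatty acid enzymes) were set beside the 3 LXR targets. Both classes are as listed here, and whether any of the 28 also respond to LXR was not tested. Of the SREBP targets 7 were higher in KO and 0 lower, 24 (85.7%) had a positive difference, and the median was 0.73; within slides it was 0.51, 0.89 and 0.63, which is 0.51, 0.56 and 0.67 above all genes. As deviations from the WT mean of each gene, the targets' median was 0.66, 0.96 and 0.76 on the KO arrays and 0.11, -0.15 and 0.10 on the WT arrays. Among the 26 SREBP targets well above background on all arrays, 6 were higher and 0 lower, with a median of 0.69. The LXR targets had 1 gene higher, 0 lower, and a median of -0.53 that was 0.69, 0.50 and -0.79 within slides, so its sign differed between slides.

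The 3 LXR targets did not move together. Abca1, the exporter that loads cholesterol onto apolipoprotein A-I, was at 3.68, 3.13 and 3.12 in KO and at 0.37, 1.69 and 1.05 in WT. It was higher by 2.27 ± 0.37, or 4.82-fold (adjusted p = 0.0244), the widest difference among the 37 members, with 3.31, 1.44 and 2.06 within slides. Abcg1, a partner in export to mature lipoproteins, was at -2.13, -1.49 and -1.55 in KO and at -2.82, 0.97 and -0.30 in WT. The WT arrays of Abcg1 lay on both sides of KO, and its -1.01 ± 0.88 did not pass (adjusted p = 0.553; -2.06 without WT replicate 1 and -0.16 without WT replicate 2, adjusted p = 0.0876 and 0.914). Mylip was at -0.13, 0.85 and 0.21 in KO and at 1.18, 0.35 and 0.99 in WT, overlapping groups with a difference of -0.53 ± 0.34 (adjusted p = 0.416).

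Of the receptors, Nr1h3, the LXR form known from liver, macrophages and fat, was at 2.22, 1.995 and 2.03 in KO and at 1.12, 1.45 and 1.35 in WT. Its difference of 0.77 ± 0.20 (adjusted p = 0.0813) and that of its other probe, 0.85 ± 0.20 (adjusted p = 0.0688), missed the threshold, with separate groups on both. The broadly expressed Nr1h2 was close to level, at 4.15, 4.36 and 4.37 in KO and at 4.01, 4.09 and 4.17 in WT (0.20 ± 0.19, adjusted p = 0.579).

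**Figure D4:**
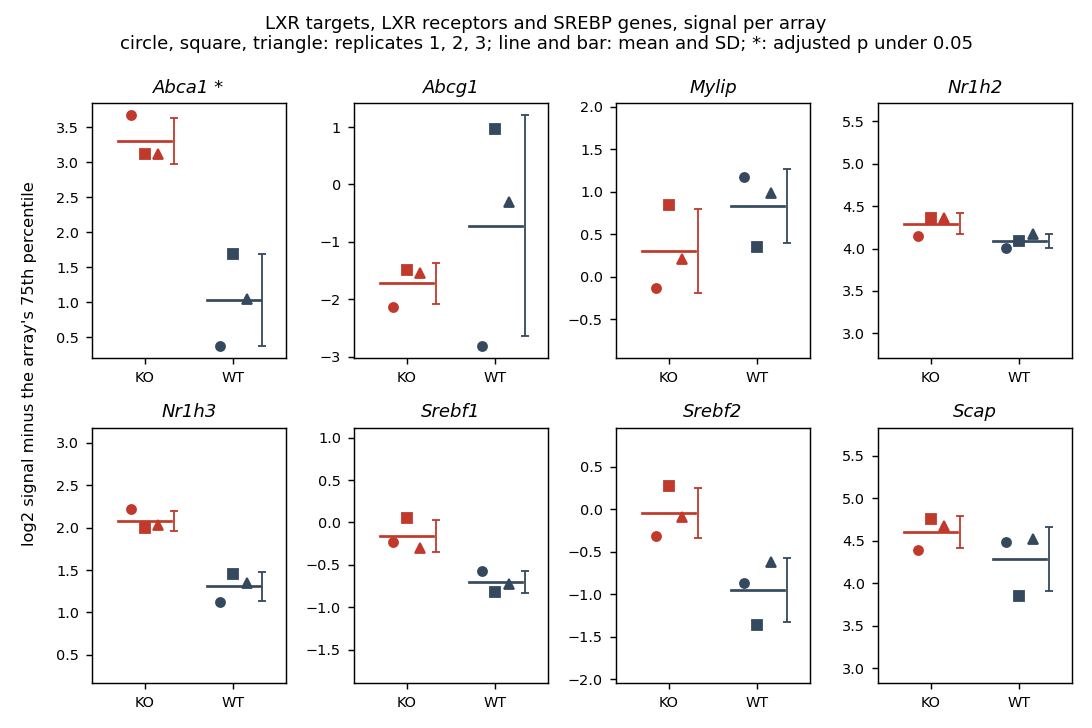
Log2 signal minus the array's 75th percentile for SREBP regulators, LXR targets and LXR receptors on each array (circles, squares and triangles are replicates 1, 2 and 3; lines and bars are the mean and SD of 3 arrays). Abca1 is higher on every KO array, while Abcg1 and Mylip overlap between KO and WT; stars mark adjusted p under 0.05.

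**Figure D5:**
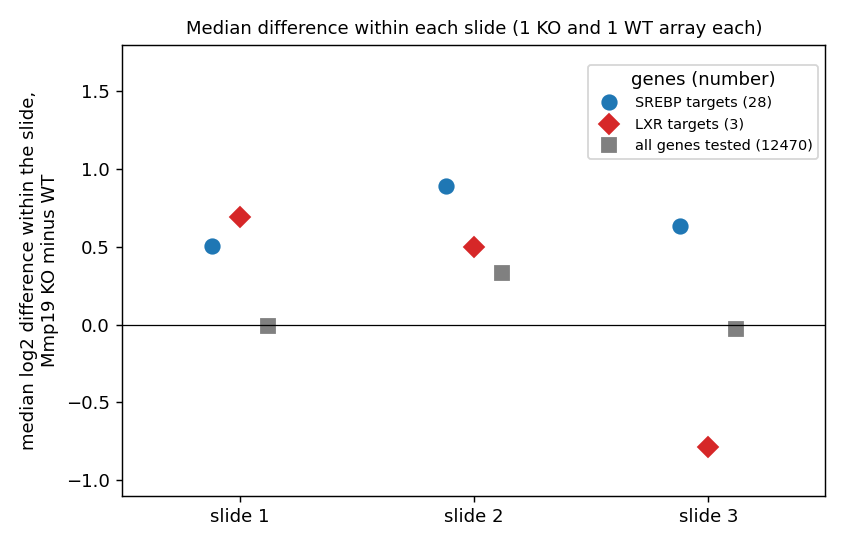
Median log2 difference, KO minus WT, within each of the 3 slides for the SREBP targets, the LXR targets and all genes tested. SREBP targets lie above all genes on slides 1, 2 and 3 (0.51, 0.89 and 0.63, against -0.01, 0.33 and -0.03), and the LXR targets change sign on slide 3.

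A wider list of 74 other genes of these pathways gave a different share. Of 63 tested, 2 were higher in KO and 0 lower (3.17% higher, near the 3.3% of all genes), 44 had a positive difference and the median was 0.33. By sub-list, 0 of 6 further sterol synthesis genes passed in either direction, though 6 of 6 were positive and 4 had an unadjusted p under 0.05 (median 0.66). Of 26 further genes of fatty acid and glycerolipid synthesis 0 passed, with 3 higher and 3 lower at an unadjusted p of 0.05 and a median of 0.10. At that unadjusted p 14.4% of all genes were higher and 7.38% lower, while 11.5% of these 26 were higher. The 2 that passed were among 9 LXR partners and further targets, of which 7 were positive and 6 higher, 0 lower, at an unadjusted p of 0.05. The median of these 9 was 1.26, and 1.17, 1.18 and 1.04 within slides, whereas that of the 3 LXR targets above was -0.53. Rxra, the receptor that pairs with LXR, was at -1.101, -0.90 and -0.94 in KO and at -2.27, -2.20 and -2.26 in WT, and was higher by 1.26 ± 0.18 (adjusted p = 0.0191; 0.0647 with slide as a block, which ends the call); its dimmer probe differed by 0.40 ± 0.48 (adjusted p = 0.675). Lpl, which frees fatty acids from lipoproteins, was at 3.01, 2.44 and 2.99 in KO and at 1.32, -0.31 and 0.78 in WT. Lpl was higher by 2.22 ± 0.43 (adjusted p = 0.0393), and by 2.74 ± 0.27 on its other probe (adjusted p = 0.00587); both probes also passed with slide as a block (adjusted p = 0.049 and 0.0271).

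Markers of other cells were read for the same arrays. Of the lipofibroblast and adipocyte list 6 of 10 genes were tested, with 0 higher and 1 lower: Plin2, the coat protein of lipid droplets, was at 3.94, 4.08 and 4.003 in KO and at 4.93, 5.01 and 4.93 in WT, a fall of 0.95 (SE 0.18, adjusted p = 0.0378; 0.093 with slide as a block). The other 5 had positive values, and the median of the 6 was 0.96: Tcf21 differed by 1.58 ± 0.45, Fabp4 by 1.46 ± 0.35, Plin4 by 1.06 ± 0.26, Pparg by 0.85 ± 0.38 and Cebpa by 0.09 ± 0.53, without passing (adjusted p from 0.0693 to 0.944). The summed signal of that list was 60.1 to 65.8 times the 75th percentile in KO and 44.8 to 54.1 in WT. The summed fibroblast signal was 2399 to 2439 in KO and 1186 to 2149 in WT. Macrophage markers were at 48.1 to 110.2 in KO and 58.7 to 71.4 in WT. Most of that sum was 1 Itgam probe, at 6.55, 5.15 and 5.65 log2 units in KO and 5.95, 5.61 and 5.58 in WT. Another Itgam probe was at -2.27, -2.19 and -2.33 in KO and -2.14, -2.49 and -2.78 in WT. Mrc1 was above background on no array, and of 5 macrophage markers tested 0 passed in either direction. Alveolar epithelial markers were at 75.1 to 83.4 in KO and 50.4 to 57.4 in WT. Of the 8 epithelial markers tested, however, 6 had a negative difference and the median was -0.025. The 2 positive ones were Abca3 (0.95 ± 0.21) and Krt18 (2.55 ± 0.70). The part of the mesothelial, fibroblast and epithelial markers in the differences of the sterol and fatty acid genes was not tested.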

How the data were processed

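RNA of 6 cultures was labelled with Cy3 and hybridised to 1-colour Agilent arrays, per the labels. The deposited scanner files list intensities, spot by spot. Per their headers, Agilent Feature Extraction 10.7.3.1 gave a background-subtracted processed intensity and flags, on a design annotated with mm9; the submitters' processing notes name version 9.1. The authors also deposited log2 values for 35844 probes, with medians from 5.51 to 5.76; each column tracked its own array at a correlation of 0.996 or more and other arrays at 0.989 or less, and its centring stays unknown, so it served as an alternative.

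Control spots were left out, and spots of a probe averaged after outlier flags were removed. Each array's 75th percentile was subtracted from log2 processed intensity. A probe was tested where the 3 arrays of either group all flagged it well above background (24214 of 55681); a probe counted as above background if most of its spots were. No spot was saturated (0 spots). Groups were compared with limma 3.58.1 in R 4.3.3 (lmFit, eBayes, two-sided, Benjamini-Hochberg over all probes tested, threshold 0.05), a method tested on simulated data. A gene stands for its tested probe with the highest mean; 47.4% of probes were named, by RefSeq accession through GRCm38.p6. For a probe above background on no array of a group, the fold is a bound, set against the higher of its own signal and the lowest signal above background on each array. With 3 arrays against 3, an exact permutation test cannot go below p = 0.1, so none was run.

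The members and lists were chosen with earlier results of these data known. Named are all members, Mmp19, other pathway genes past the threshold and markers from their lists. The KO and WT array of 1 replicate number shared a slide; their deviations from the mean of their group had correlations of 0.096, -0.021 and 0.21, so replicate numbers were not treated as pairs. The main fit had no slide term. Slide, with both groups on each, entered only as a block in an alternative fit, whose adjusted p-values are named as such.

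Alternatives were normexp (offset 50, on the median signal, since no mean signal was in the tables), quantile and cyclic loess normalization, other scalings, filters and priors, array weights, the authors' log2 values, slide as a block, and each array left out.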

Additional observations from a re-analysis of the deposited data

How the results depend on the processing

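The 8 members past the threshold stayed 8 or 9, and all higher in KO, with quantile or cyclic loess normalization, both other scalings, the authors' deposited log2 table, a trended robust prior and the median of a gene's probes. The count was 4 with normexp, 6 of 35 with probes above background on all 6 arrays, 0 without a filter on dim probes (15 at an unadjusted p of 0.05), 15 with array weights and 1 with the replicate block (slide). The share of all genes called higher was 2.44%, 2.59%, 0.28%, 11.8% and 1.17% in these settings, against 3.3% as reported. In the settings with 8 or 9 members it ran from 2.96% to 3.84%, the median of a gene's probes aside. Over all probes the count was 1124, against 633 with normexp, 113 without a filter, 650 with the filter on all 6 arrays, 385 with the replicate block and 5068 with array weights. Leaving out 1 array gave 0 to 8 members and 107 to 1716 probes. The count was 0 members without KO replicate 3, WT replicate 1 or WT replicate 3. At an unadjusted p of 0.05, 15, 18 and 16 were higher in these and 0, 1 and 0 lower. The share of all genes at that p was not taken for these fits or for the fit without a filter. Those unadjusted counts therefore cannot be read against all genes. The count of members past the threshold was 2 without KO replicate 2, 3 without KO replicate 1 and 8 without WT replicate 2, where Idi1 was lost and Tm7sf2 gained. The cause of these moves was not tested, though each such fit has fewer arrays. The SREBP target median ran from 0.62 to 0.81 and the LXR target median from -0.80 to -0.16 with 1 array left out. No called member changed sign in any alternative, and Insig1 passed in 13 of 18, Fdps and Fads1 in 12, Abca1 in 11, Mvd and Scd1 in 10 and Idi1 in 9, and Fads2 in 10 of 17. Scaling moved the median of all genes between 0.13 (median scaling), 0.08 (as reported) and -0.03 and -0.05 (75th percentile of detected probes and the authors' table), and the share of called probes that were higher in KO between 66.5%, 62%, 51.9% and 55.6%; it was 48.8% without WT replicate 2 and 76.7% without WT replicate 3. Dim probes such as those of Fads2 are limited by signal over background.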
